A study of Homo sapiens with 6 samples.

Results

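The genes described here are 33 genes of cholesterol and fatty acid synthesis and of its control by sterol regulatory element-binding proteins (SREBPs), out of 23228 genes counted in the series. They were chosen by name from knowledge of the pathway and comprise 18 genes of the sterol branch, from acetyl-CoA to cholesterol, 8 genes of the fatty acid branch and 7 genes of regulation and sterol transport. All 33 passed the filter on low counts, as did 13408 genes in all. RNA was sequenced from HEC-1-A, a line of human endometrial adenocarcinoma cells. The control group (n = 3) was kept for 24 h in McCoy's 5A medium containing serum, and the other group (n = 3) received SMIP34 at 20 µM for 24 h in the same medium. SMIP34 is an inhibitor of PELP1, a coregulator of nuclear receptors, and lowers the amount of PELP1 protein in cells. The comparison addresses how treatment with this inhibitor alters transcript levels, in 1 cell line at 1 dose and 1 time. Effects through PELP1 and other effects of SMIP34 cannot be told apart in these libraries. The study's methods name vehicle for the control cells, while the labels of those libraries name only the medium. Nothing in the labels says that the libraries of a group came from separate cultures, so p-values measure only the spread between these libraries, which may be technical.

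Cells make cholesterol from acetyl-CoA through mevalonate and squalene, and make fatty acids from the same acetyl-CoA through malonyl-CoA. Both routes are controlled at the level of transcription by SREBPs, which are made as precursors in the membrane of the endoplasmic reticulum. When sterols are scarce, the escort protein SCAP carries the precursor to the Golgi, where it is cleaved and releases a transcription factor, and when sterols are plentiful the INSIG proteins hold SCAP and the precursor back. SREBF2 encodes the factor known mainly for sterol genes, and SREBF1 encodes factors known mainly for fatty acid genes. The serum in the medium of both groups carries lipoproteins, a source of cholesterol. Transcript counts measure neither the cleavage of the precursors nor the amount of lipid.

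Counts on genes came to between 19562711 and 22014835 per library, and they are given here as CPM, a gene's counts per 1000000 counts of the library total after TMM scaling. Control replicate 1, the shallowest library, had counts on 16881 genes, against 15965 to 16100 genes in the other libraries. Libraries of the same group differed by a chi-square per gene of 1.89 to 3.26 over 6 pairs, and libraries of different groups by 8.75 to 13.2 over 9 pairs. The 5 epithelial markers examined were all expressed and summed to between 2910 and 3010 CPM in control and between 2760 and 2780 CPM in SMIP34-treated cells, and KRT8 and KRT19 among them fell. The 4 leukocyte markers summed to at most 1.8 CPM and the 3 endothelial markers to at most 0.721 CPM in any library, with PTPRC and CD3E at 0 in every control library. The 4 fibroblast markers summed to between 2.76 and 3.22 CPM in control and between 3.98 and 4.62 CPM in SMIP34-treated cells, with LUM at 0 in every library. Most of these sums was COL1A1, at 2.96 ± 0.218 CPM in control and 4.19 ± 0.346 CPM in SMIP34-treated cells (SD, n = 3 each). COL1A1 rose with an adjusted p of 0.0151 by edgeR. The part of these markers in the results was not tested.

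SMIP34 treatment moved the pathway by small amounts in both directions. The transcripts of SREBF1 and, less, SREBF2 fell, and those of INSIG1, INSIG2, FASN and the sterol enzymes HMGCS1 and FDFT1 rose. Another 6 sterol enzymes fell, as did TMEM97, FADS2 and ACSS2. The test was the quasi-likelihood test of the edgeR package, adjusted over all genes tested. At an adjusted p under 0.05, SMIP34-treated cells had 5 of the 33 genes higher and 11 lower. Of the 13408 genes tested, 17.4% were higher and 17.2% were lower by the same rule, and 34.6% passed in either direction. The 16 genes that passed were 48.5% of the 33. Among the 8950 genes at or above the control level of the gene lowest in the pathway, 43.5% passed. The share in the pathway lies near the share in that set, which has no upper limit of abundance. The balance of directions moved with the scaling, with 6 genes higher and 6 lower when only the library totals were used, and 8 higher and 9 lower with offsets for gene length. Of the 6 sterol enzymes that fell, MVK, FDPS, EBP and DHCR7 no longer passed with those offsets. Log2 fold changes ran from -0.42 to 0.29. The median was -0.049, against -0.0022 over all genes tested, and the median absolute value was 0.11, against 0.12. A limit of an absolute log2 fold change over 0.5 was then added. With it, 0 of the 33 genes passed in edgeR or in DESeq2, against 3.31% of all genes tested in edgeR. An unadjusted p under 0.05 in edgeR was found for 20 of the 33 genes and for 5850 of the 13408 genes tested. The values of control and SMIP34-treated libraries did not overlap in 20 of the 33 genes (60.6%), against 44.5% of all genes tested. That 44.5% includes genes below the level of the lowest of the 33, and the share without them was not computed. Because RNA came from whole cultures, a different share of cells and a different amount of RNA per cell cannot be told apart.

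**Figure D1:**
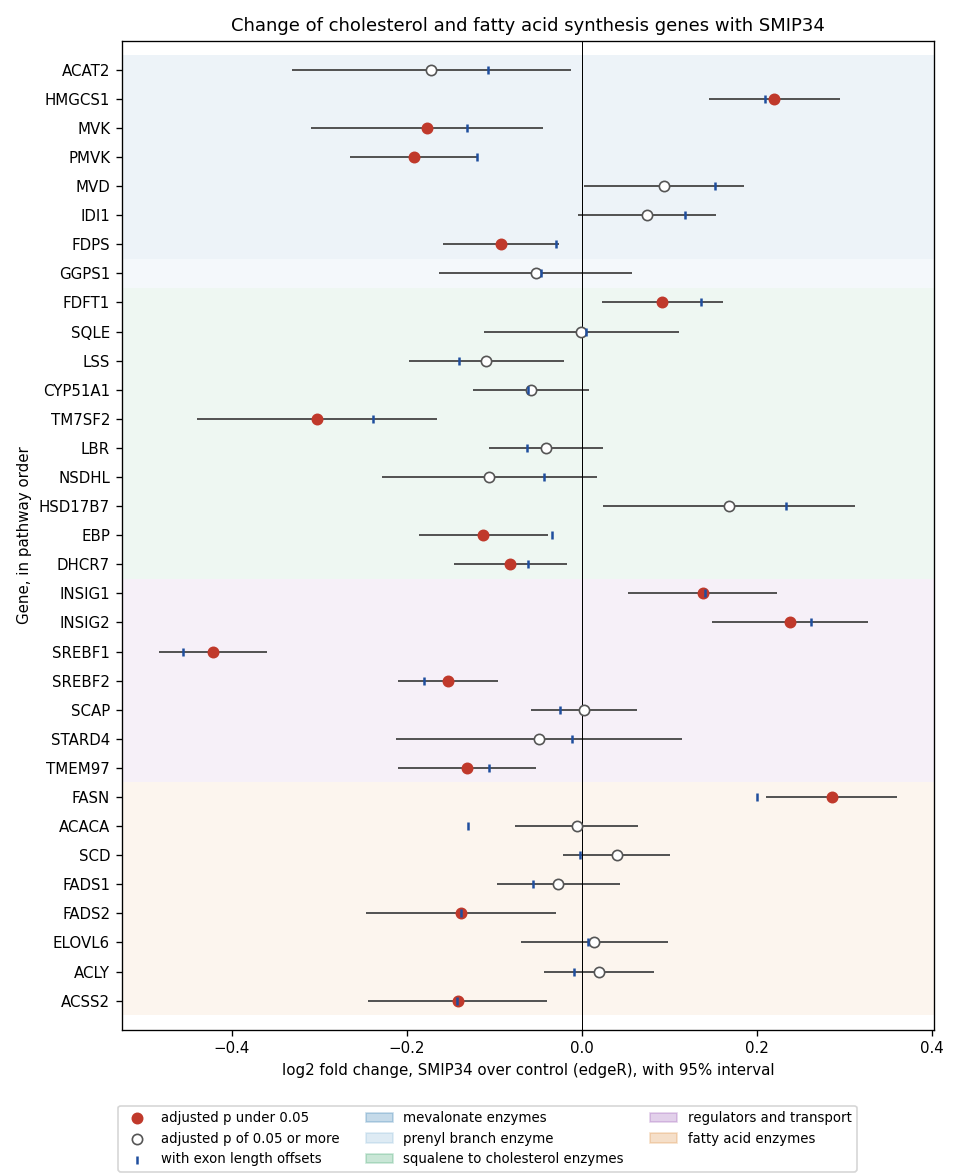
Log2 fold change (SMIP34 against control) of each of the 33 genes, ordered by role, with its 95% confidence interval (edgeR). SREBF1 at -0.42 and FASN at 0.29 mark the ends of the range, and every gene lies within the fold limit of 0.5 in either direction.

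SREBF1 encodes the SREBP1 factors and lies on the minus strand of chromosome 17 of hg19, from 17714663 to 17740325. Its level was 206, 209 and 212 CPM in control replicates 1, 2 and 3 and 157, 159 and 152 CPM in SMIP34 replicates 1, 2 and 3. Every SMIP34-treated library was below every control library. The mean fell from 209 ± 2.83 CPM to 156 ± 3.37 CPM (SD, n = 3 each), a change of -25.4% or -0.42 on the log2 scale (standard error, SE, 0.030, with an adjusted p of 2.41e-11 by edgeR). SREBF2, on chromosome 22 from 42229106 to 42302375, was at 290.3, 302 and 301 CPM in control cells and at 269, 269 and 265 CPM with SMIP34, again without overlap. Its log2 fold change was -0.15 (SE 0.028, adjusted p = 0.000108), a change of -10.0%. The ratio of SREBF1 to SREBF2 counts was between 0.691 and 0.71 in control libraries and between 0.573 and 0.589 in SMIP34-treated libraries. This ratio was not corrected for exon length. The counts sum all isoforms of each gene.

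Promoter sequence is shown for both SREBP genes and for the sterol enzymes with the largest increase (HMGCS1) and the largest decrease (TM7SF2), as the 250 bases before the RefSeq start of each gene on GRCh38.p14, 5′ to 3′ on the strand of the gene. HMGCS1 and TM7SF2 were chosen with their values known. SREBPs are known to bind sterol regulatory elements, usually next to sites for the factors NF-Y (CCAAT) and SP1 (GC boxes). Capitals mark TCACNCCAC, a form of the sterol regulatory element, and CCAAT, either of them on either strand (ATTGG is CCAAT on the opposite strand). SREBF1 is read from chr17:17836987-17837236 (minus strand), SREBF2 from chr22:41832855-41833104 (plus strand), HMGCS1 from chr5:43313413-43313662 (minus strand) and TM7SF2 from chr11:65111622-65111871 (plus strand).
SREBF1: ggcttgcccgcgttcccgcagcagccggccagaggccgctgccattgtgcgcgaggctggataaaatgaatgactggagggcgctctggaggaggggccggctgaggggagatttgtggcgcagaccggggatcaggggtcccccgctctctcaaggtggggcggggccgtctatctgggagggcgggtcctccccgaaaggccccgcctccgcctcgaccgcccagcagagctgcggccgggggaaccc
SREBF2: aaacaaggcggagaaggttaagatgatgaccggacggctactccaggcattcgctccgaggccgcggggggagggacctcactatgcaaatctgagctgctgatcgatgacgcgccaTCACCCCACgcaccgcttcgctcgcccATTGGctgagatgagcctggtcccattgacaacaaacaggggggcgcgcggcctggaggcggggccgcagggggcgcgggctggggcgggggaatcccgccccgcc
HMGCS1: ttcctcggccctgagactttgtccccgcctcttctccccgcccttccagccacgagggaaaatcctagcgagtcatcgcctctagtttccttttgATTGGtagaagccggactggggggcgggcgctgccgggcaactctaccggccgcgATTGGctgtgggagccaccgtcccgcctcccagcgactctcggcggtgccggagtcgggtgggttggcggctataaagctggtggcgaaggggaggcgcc
TM7SF2: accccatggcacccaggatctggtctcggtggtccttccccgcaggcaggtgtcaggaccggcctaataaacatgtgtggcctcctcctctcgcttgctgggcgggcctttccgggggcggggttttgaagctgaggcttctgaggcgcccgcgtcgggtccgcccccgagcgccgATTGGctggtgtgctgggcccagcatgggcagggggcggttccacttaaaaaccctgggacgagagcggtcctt
The SREBF2 window held 1 sterol regulatory element, beginning 133 bases before the start, and 1 CCAAT box beginning 106 bases before it. The SREBF1 window held neither, the HMGCS1 window held 2 CCAAT boxes, beginning 155 and 100 bases before the start, and the TM7SF2 window held 1, beginning 74 bases before it. A second RefSeq start of HMGCS1, with its window at chr5:43313182-43313431, had neither motif in those 250 bases.

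Windows from 250 bases before to 50 bases after the start were given for 29 of the 33 genes, and each motif was searched as exact letters on both strands. TCACNCCAC was in windows of 1 of these 29 genes, SREBF2 (3.45%), against 1.39% of the 27305 genes with a window. CCAAT was in windows of 21 of the 29 (72.4%) against 39.7% of all genes, and the GC box GGGCGG in 27 (93.1%) against 48.3%. The 27305 genes were not limited to genes expressed in these cells. A gene with several windows counted if any of them held the motif, and the 29 genes had 41 windows. The part of expression and of the number of windows in these shares was not tested. The E-box CACGTG, which SREBPs can also bind, was in windows of 3 genes, LSS, INSIG1 and SCAP (10.3%), against 8.77% of all genes. A match describes letters in a window and is not a site, and no match says only that these letters are not in that window.

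The other genes of SREBP control and sterol transport did not move together. INSIG2, on chromosome 2 from 118846050 to 118867597, was at 63.3, 63.8 and 58.5 CPM in control cells and 75.4, 73.7 and 69.8 CPM with SMIP34. It rose by 17.9% (log2 fold change 0.24, SE 0.043, adjusted p = 0.000104), with all treated libraries above all controls. INSIG1, itself a known SREBP target, on chromosome 7 from 155089486 to 155101945, was at 56.6, 56.4 and 56.0 CPM in control cells and 63.5, 60.2 and 62.2 CPM with SMIP34. It rose by 10.0% (log2 fold change 0.14, SE 0.041, adjusted p = 0.0106), but without SMIP34 replicate 1 the adjusted p was 0.0609. SCAP, the escort, was at 190, 189 and 194 CPM in control and 193, 188 and 194 CPM after treatment, and its log2 fold change of 0.0025 had a 95% interval from -0.058 to 0.063. TMEM97, a membrane protein of cholesterol trafficking, fell from 72.9 ± 1.29 to 66.5 ± 0.316 CPM (SD, n = 3 each), without overlap (log2 fold change -0.13, adjusted p = 0.00888 by edgeR). STARD4, a soluble carrier of cholesterol, did not pass, with a log2 fold change of -0.049 and an interval from -0.21 to 0.12. Of the 7 genes of regulation and transport, with SREBF1 and SREBF2 included, 2 were therefore higher and 3 lower.

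**Figure D2:**
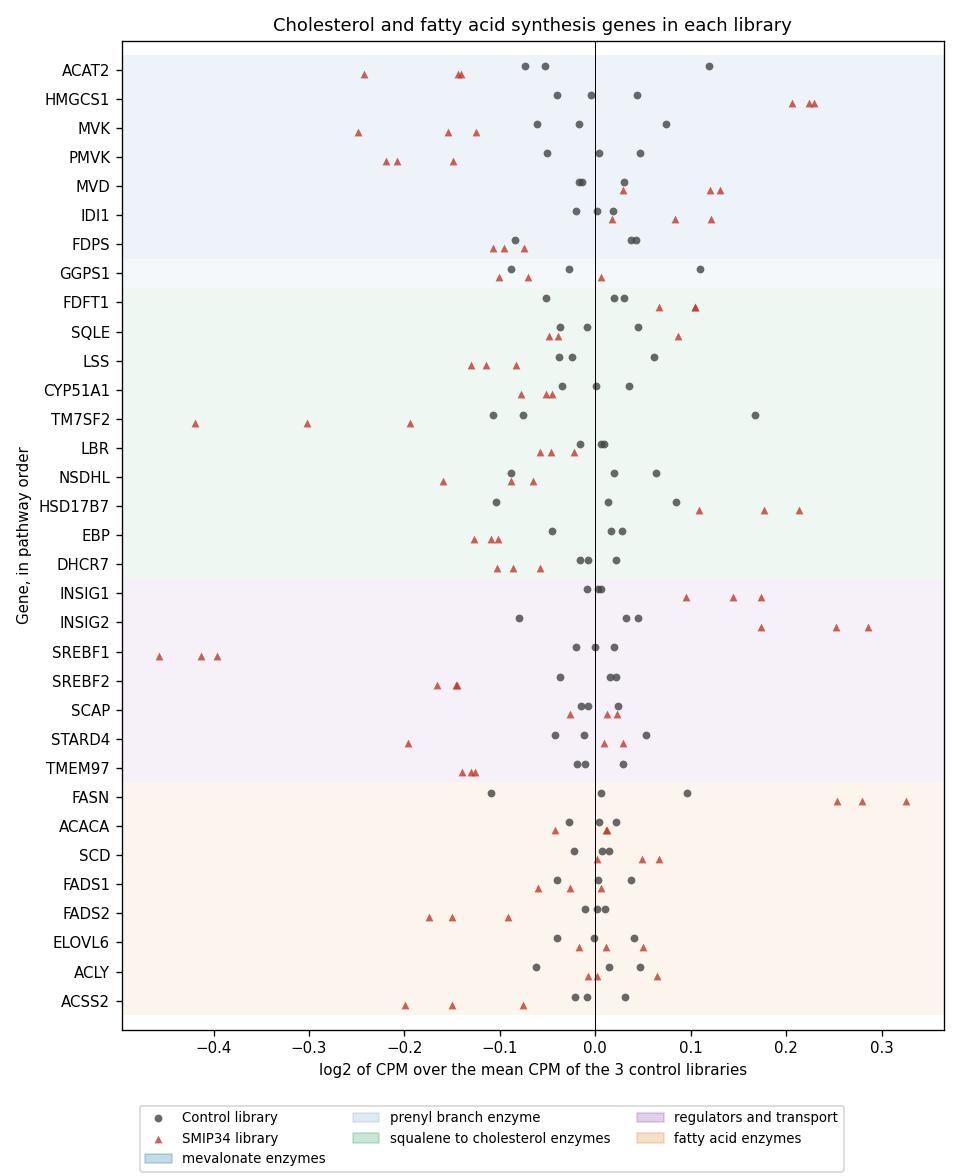
Level of each of the 33 genes in each library, as log2 of its CPM relative to the control mean, with control and SMIP34 replicates as separate points. The treated points of SREBF1, SREBF2 and TM7SF2 lie below all control points, and those of FASN, HMGCS1, INSIG1 and INSIG2 lie above them.

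In the fatty acid branch the largest difference was that of FASN, the fatty acid synthase, on the minus strand of chromosome 17 from 80036214 to 80056106. FASN was at 195, 212 and 225 CPM in control cells and at 256, 264 and 251 CPM with SMIP34. The controls were spread more widely than the treated libraries, and the groups did not overlap. The mean rose from 211 ± 15.0 to 257 ± 6.62 CPM (SD, n = 3 each), by 21.9% (log2 fold change 0.29, SE 0.037, adjusted p = 8.65e-07 by edgeR). Thus FASN and SREBF1 moved in opposite directions. The ratio of FASN to SREBF1 CPM was 0.948, 1.01 and 1.06 in the control libraries and 1.63, 1.67 and 1.65 in the SMIP34-treated libraries. These CPM were not divided by exon length, so the ratio compares libraries and not the levels of the genes.

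Of the enzymes that supply FASN, ACLY and ACACA were not called and ACSS2 fell. ACLY, which makes cytosolic acetyl-CoA from citrate, was at 258, 272 and 278 CPM in control libraries and 268, 282 and 269.8 CPM after treatment. ACACA, the carboxylase that makes malonyl-CoA, was at 106, 108 and 109.7 CPM in control libraries and 109, 105 and 109 CPM after treatment, with a log2 fold change of -0.0060 and an interval from -0.076 to 0.064. ACSS2, which makes acetyl-CoA from acetate, was at 41.1, 42.3 and 40.8 CPM in control and fell to 37.3, 36.0 and 39.2 CPM (log2 fold change -0.14, SE 0.050, adjusted p = 0.0285). Its groups did not overlap.

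The genes that desaturate and elongate fatty acids gave 1 call. FADS2, a desaturase of polyunsaturated fatty acids, fell from 33.8, 33.98 and 33.5 CPM to 31.7, 29.9 and 30.4 CPM (log2 fold change -0.14, SE 0.053, adjusted p = 0.0439). FADS1, its neighbour in the same desaturation pathway, had a log2 fold change of -0.027 (adjusted p = 0.589). SCD, the stearoyl-CoA desaturase, was at 200.4, 195 and 199 CPM in control libraries and at 208, 199 and 205 CPM after treatment, with a log2 fold change of 0.040 and an interval from -0.021 to 0.10. ELOVL6, an elongase of saturated fatty acids, had a log2 fold change of 0.014 (adjusted p = 0.823). In the fatty acid branch as a whole, 1 of 8 genes was higher, 2 were lower and 5 did not pass.

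Among the 7 enzymes from acetyl-CoA to farnesyl diphosphate, 1 was higher and 3 were lower. HMGCS1, the cytosolic HMG-CoA synthase, on the minus strand of chromosome 5 from 43289493 to 43313595, was at 80.4, 78.4 and 83.1 CPM in control cells and at 94.1, 94.6 and 93.0 CPM with SMIP34. Its treated libraries lay close together and above every control, and it rose by 16.5% (log2 fold change 0.22, SE 0.037, adjusted p = 3.36e-05 by edgeR). PMVK, the phosphomevalonate kinase, on chromosome 1 from 154897208 to 154909484, was at 120.1, 124 and 116 CPM in control libraries and at 104, 108 and 103 CPM after treatment. It fell without overlap (log2 fold change -0.19, SE 0.035, adjusted p = 0.000119). MVK, the kinase that acts just before PMVK, fell from 24.3 ± 1.17 to 21.5 ± 0.961 CPM (SD, n = 3 each; log2 fold change -0.18, adjusted p = 0.035). FDPS, the farnesyl diphosphate synthase, was at 226, 225 and 207 CPM in control libraries and at 205, 208 and 203 CPM after treatment, so that control replicate 3 lay within the treated range. Its log2 fold change was -0.092 (adjusted p = 0.0283).

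The remaining mevalonate enzymes did not pass. MVD, which follows PMVK, was at 50.6, 52.2 and 50.5 CPM in control libraries and at 56.0, 55.6 and 52.1 CPM after treatment (log2 fold change 0.094, adjusted p = 0.105). IDI1, the isomerase after MVD, had a log2 fold change of 0.075 (adjusted p = 0.139), and ACAT2, the cytosolic thiolase that opens the route, had one of -0.17 (adjusted p = 0.0872). The kinases MVK and PMVK were thus lower, and the enzymes just after them were not called. GGPS1, which leads from farnesyl diphosphate to the prenyl groups of proteins, was at 44.3, 40.3 and 38.6 CPM in control libraries and at 41.2, 38.3 and 39.1 CPM after treatment, with an interval of its log2 fold change from -0.16 to 0.058.

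From squalene to cholesterol, 1 of 10 enzymes was higher and 3 were lower. FDFT1, the squalene synthase at the entry to this segment, was at 120.3, 121 and 115 CPM in control cells and at 128, 124 and 128 CPM with SMIP34, a rise without overlap (log2 fold change 0.092, SE 0.034, adjusted p = 0.0343). SQLE, the squalene epoxidase that follows, was at 32.97, 34.9 and 33.6 CPM in control libraries and at 32.7, 32.9 and 35.9 CPM after treatment, with an interval from -0.11 to 0.11. LSS, the cyclase that makes lanosterol, had a log2 fold change of -0.11 (adjusted p = 0.0516), and CYP51A1, the lanosterol demethylase, one of -0.058 (adjusted p = 0.169).

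TM7SF2, a sterol reductase that acts after CYP51A1, showed the largest decrease of the sterol branch. It lies on chromosome 11 from 64879341 to 64883707 and was at 34.4, 35.1 and 41.6 CPM in control libraries and at 30.0, 32.4 and 27.7 CPM after treatment. The groups did not overlap, although control replicate 3 stood above the other controls and the control coefficient of variation of 10.7% was the highest of the 33 genes. The decrease was 18.9% (log2 fold change -0.30, SE 0.067, adjusted p = 0.000842 by edgeR) and lay between -0.36 and -0.21 on the log2 scale with each library left out in turn. LBR, the lamin B receptor, which carries the same reductase activity, was at 134, 132 and 134 CPM in control libraries and at 131, 128 and 129 CPM after treatment, and did not pass (log2 fold change -0.041, adjusted p = 0.337).

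Of the last enzymes of the route, EBP, the sterol isomerase, fell from 95.1 ± 2.60 to 87.9 ± 0.793 CPM (SD, n = 3 each; log2 fold change -0.11, adjusted p = 0.0156 by edgeR). DHCR7, the reductase of the final step, fell from 147 ± 2.04 to 139 ± 2.15 CPM (log2 fold change -0.082, adjusted p = 0.0442), and both genes were without overlap. NSDHL and HSD17B7 act together in removing methyl groups from the sterol ring, and neither passed. NSDHL had a log2 fold change of -0.11 (adjusted p = 0.179). HSD17B7 was at 19.5, 18.5 and 17.1 CPM in control libraries and at 21.3, 19.8 and 20.8 CPM after treatment, without overlap (log2 fold change 0.17, adjusted p = 0.065).

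The branches can be set side by side in each library. The median deviation of the 18 sterol genes from their control means, on the log2 scale, was 0.0068, 0.0043 and -0.016 in control replicates 1, 2 and 3 and -0.080, -0.069 and -0.063 in SMIP34 replicates 1, 2 and 3. All 3 treated libraries were below all controls. For the 8 fatty acid genes the medians were -0.0051, 0.0092 and 0.015 in control and -0.012, 0.0041 and 0.0073 in treated cells, which overlap. In fitted log2 fold changes, the median was -0.070 in the sterol branch, with 13 of 18 below 0 (one of them, SQLE at -0.0006, changed sign in 9 of 20 alternative analyses), and 0.0041 in the fatty acid branch, with 4 of 8 below 0. Of all genes tested, 6774 of 13408 were below 0. The difference between the branches was not tested, and with offsets for gene length the medians were -0.045 and -0.032. Summed over each branch, sterol genes came to 1438 ± 17.5 CPM in control libraries and 1397 ± 0.866 CPM after treatment, and fatty acid genes to 1043 ± 26.6 and 1090 ± 8.98 CPM (SD, n = 3 each). Within the fatty acid sum, FASN went from 211 ± 15.0 to 257 ± 6.62 CPM. It was the only 1 of the 8 genes called higher, and 2 were lower.

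Per kilobase of exon, the levels of the 33 genes in control cells spanned from 6.88 CPM for STARD4 to 133 ± 6.47 CPM for FDPS (SD, n = 3). PMVK at 92.3 ± 3.10 CPM per kilobase and EBP at 82.2 ± 2.24 followed FDPS, then SREBF2 at 69.2 and ACLY at 61.9. FDFT1 at 56.4 ± 1.72 and DHCR7 at 55.0 ± 0.766 CPM per kilobase were next to each other and did not differ beyond their spread. SREBF1 was at 41.8 ± 0.566 in control and 31.2 ± 0.673 CPM per kilobase in treated cells, between the levels of CYP51A1 and SCD in control. FASN was at 24.9 ± 1.77 in control and 30.4 ± 0.782 in treated cells, so that FASN and SREBF1, which differed in control cells, lay close together after treatment. The lowest levels were those of FADS2, ACACA and STARD4.

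**Figure D3:**
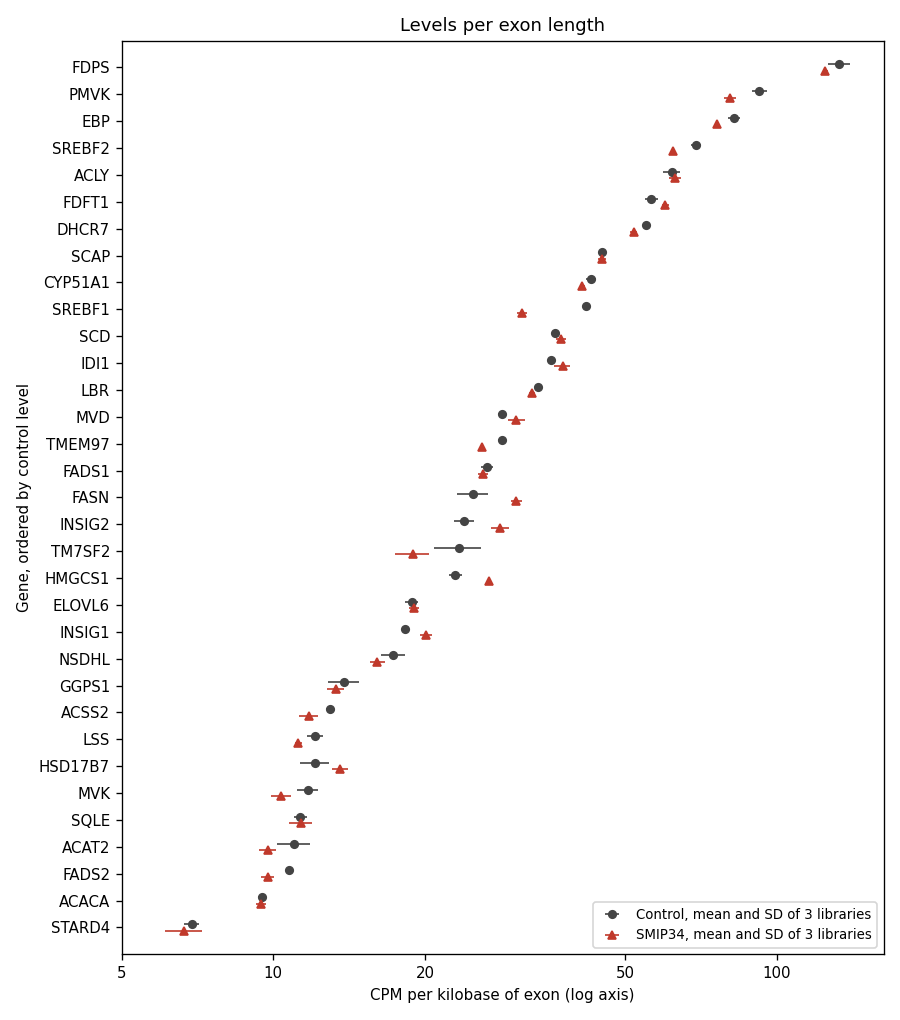
Level of each of the 33 genes in CPM per kilobase of exon on a log axis, ordered by the control mean, with mean and SD (n = 3) for control and for SMIP34-treated cells. FDPS at 133 and STARD4 at 6.88 in control cells mark the ends of the order, and most pairs of group means lie close together.

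Fold changes in these libraries moved with gene length. When the genes tested were split into 10 groups by summed exon length, their median log2 fold change was -0.10 in the shortest group (median length 872 bases) and 0.12 in the longest (8625 bases). Of the 18 sterol genes, 14 are in the 5 shortest groups, and FASN and ACACA are in the longest. With offsets for length, fitted to each library, the log2 fold change was -0.46 for SREBF1, 0.20 for FASN, 0.21 for HMGCS1, 0.26 for INSIG2, -0.24 for TM7SF2 and -0.12 for PMVK, and all 6 passed. MVK, FDPS, EBP and DHCR7 no longer passed, with log2 fold changes between -0.13 and -0.030. Conversely, MVD (0.15), IDI1 (0.12) and HSD17B7 (0.23) passed as higher and LSS (-0.14) and ACACA (-0.13) as lower. This gave 8 genes higher and 9 lower, against 16.6% and 14.9% of all genes tested in the same fit. The part of length in the results was not tested otherwise.

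**Figure D4:**
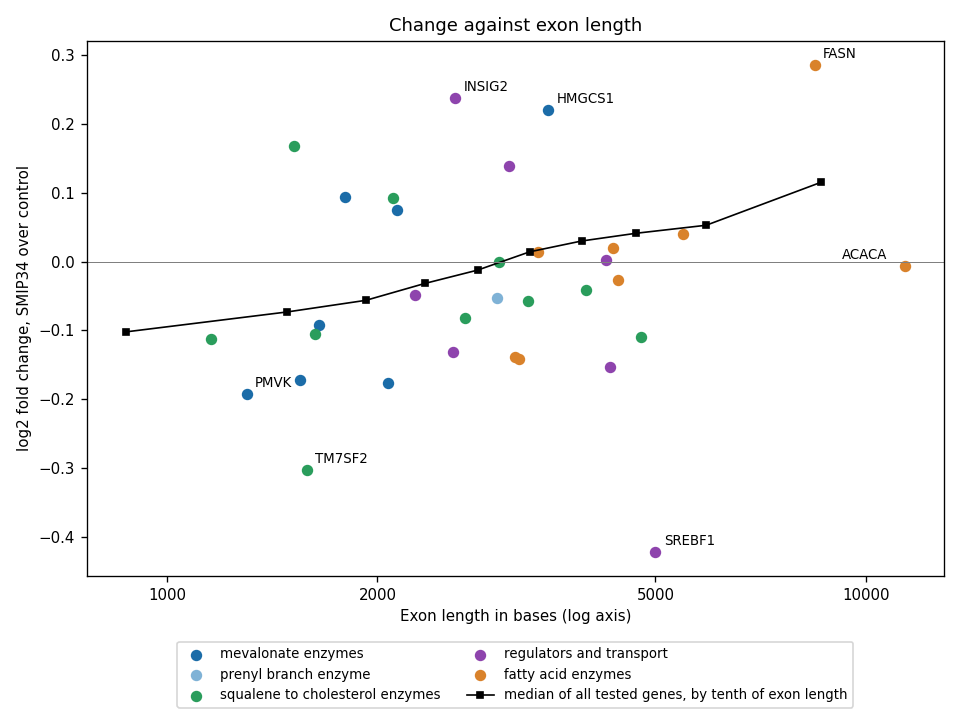
Log2 fold change (SMIP34 against control) against exon length on a log axis for the 33 genes, with the medians of 10 groups of all genes tested by exon length. The medians rise from -0.10 to 0.12 with length, SREBF1 lies far below the median of genes of its length and FASN lies above it.

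Other genes around the pathway, listed by name, had a share of calls near that of all genes. Of 53 such genes 52 were tested, 9 were higher and 8 were lower (32.7% in either direction, against 34.6% of all genes tested). Among the 8950 genes at or above the control level of the lowest of the 33 genes, the share was higher, at 43.5%. Some of the listed genes, such as ABCG1, lie below that level. Of 4 further sterol enzymes, C14orf1, a scaffold of the demethylating enzymes, fell from 49.2 ± 0.499 to 43.1 ± 1.16 CPM (log2 fold change -0.19, adjusted p = 0.00197 by edgeR), and SC4MOL, the methylsterol oxidase, had the highest value at 0.071 (adjusted p = 0.217). Among 10 genes of SREBP processing and turnover, 2 were higher and 1 was lower. SYVN1, a ubiquitin ligase of the endoplasmic reticulum, rose most (log2 fold change 0.26, adjusted p = 0.000428 by edgeR).

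Among 10 genes of the prenyl, dolichol and ubiquinone branch, 2 were higher and 1 was lower, with RABGGTB, a subunit of the enzyme that prenylates Rab proteins, at a log2 fold change of 0.20 (adjusted p = 0.00963) and COQ2, a prenyltransferase of ubiquinone synthesis, at -0.23 (adjusted p = 0.00292). Of 11 genes of cholesterol efflux, storage and trafficking that were tested, 2 were higher and 1 was lower. MYLIP, a ubiquitin ligase for lipoprotein receptors, rose most (log2 fold change 0.18, adjusted p = 0.0086), and ABCG1, a sterol exporter at about 1 CPM, had a log2 fold change of -0.32 with a standard error of 0.33. Of 17 other genes of fatty acids and glycerolipids, 3 were higher and 4 were lower. ELOVL5, an elongase of polyunsaturated fatty acids, rose most (log2 fold change 0.19, adjusted p = 0.0004). ACSL1, which activates long-chain fatty acids to their acyl-CoA esters, was the only gene of these lists past the fold limit of 0.5. ACSL1 was at 141, 143 and 146 CPM in control cells and at 97.7, 102 and 96.4 CPM with SMIP34, so that it fell by 0.54 on the log2 scale (SE 0.034, adjusted p = 1.42e-12 by edgeR).

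The calls rest on small differences between libraries that lay close together. The coefficient of variation between libraries of a group had a median over the 33 genes of 2.82% in control and 2.57% in SMIP34-treated cells. Of the 16 genes that passed, 8 passed in every one of 20 alternative analyses, which were HMGCS1, PMVK, TM7SF2, INSIG2, SREBF1, SREBF2, TMEM97 and FASN, and all 16 kept their direction. MVK, FDPS, FDFT1, EBP, DHCR7, FADS2, ACSS2 and INSIG1 lost their call in at least 1 of them, and DHCR7 and FADS2 passed in 7 of the 20. Removal of 1 library was enough in each case. MVK had an adjusted p of 0.168 without control replicate 2, 0.06 without SMIP34 replicate 1 and 0.153 without SMIP34 replicate 2. FDPS and DHCR7 kept their call without control replicate 3, while their adjusted p-values were 0.0514 to 0.145 for FDPS and 0.059 to 0.156 for DHCR7 when any other library was removed. FDFT1 was at 0.117 without control replicate 3 and at 0.109 and 0.105 without SMIP34 replicates 1 and 3. EBP was at 0.0684 and 0.0573 without control replicates 1 and 2 and at 0.0629 without SMIP34 replicate 2. FADS2 lay between 0.0617 and 0.143 when any library other than SMIP34 replicate 1 was removed, and ACSS2 between 0.0544 and 0.138 without control replicate 1 or 2 or SMIP34 replicate 1 or 2. In the other direction, LSS passed without control replicate 2 (0.0496) and HSD17B7 without control replicate 1 (0.0438).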

How the data were processed

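Libraries from 6 HEC-1-A samples, 3 control and 3 SMIP34-treated, were grouped by their labels. The authors deposited estimated counts, fractional read counts per gene, without normalization. Per the file headers, featureCounts 1.5.0-p1 counted exons of the hg19 annotation by strand, with a minimum mapping quality of 2, and split reads with several map positions or genes into fractions. The submitters' processing notes name HISAT2, SAMtools and hg19, whereas the study's methods name tophat2, HTSeq and DESeq2. Library kits of different makers are named, without assignment to libraries. Values that are not whole make up 6.31 to 7.43% of a library, and a gene that shares sequence with a copy elsewhere has an uncertain count. Among the 33 genes, fractions occurred in at most 2 of 6 libraries.

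Counts were rounded to whole numbers and filtered with filterByExpr, and 13408 of 23228 genes were scaled by TMM (factors 0.988 to 1.01). Control and treated libraries were compared in edgeR 4.0.16 (R 4.3.3) by its two-sided quasi-likelihood test, with p-values adjusted over these genes by the Benjamini-Hochberg method and a call at an adjusted p under 0.05. The fold limit of 0.5 is the study's. Fold changes are SMIP34 over control, standard errors came from the F statistic, and intervals are 95% intervals. Totals between 19562711 and 22014835 counts per library set the counting error. Alternatives were other scalings and filters, the legacy test, DESeq2 1.42.0, limma 3.58.1 (voom), unrounded counts, loess offsets (span 0.3) on exon length, a replicate block and each library left out in turn. Offsets on GC content, alone and with length, were chosen after seeing the data.

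The 33 genes and the other lists were chosen with earlier results of these data known. All 33 genes are named, and of each other list the largest increase, the largest decrease and any gene past the fold limit. The value of 1 gene under this rule is not reported here. Promoters are from RefSeq (GRCh38.p14), and coordinates of genes are those of hg19 in the files. Scripts were tested on simulated data. Figures were drawn with matplotlib 3.10.9.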

Additional observations from a re-analysis of the deposited data

How the results depend on the processing

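The 16 calls among the 33 genes kept their direction in all 20 alternatives, and 8 kept their side of the threshold in all of them. The count of higher genes (5) was 8 with length offsets and 3 to 6 with each library left out (3 without SMIP34 replicate 1). The count of lower genes (11) was 6 with library totals only, 7 with DESeq2 with or without its normal prior, 7 with GC offsets, and 5 to 10 with each library left out (5 without SMIP34 replicate 2, 6 without control replicate 1 or 2, 7 without SMIP34 replicate 1). DESeq2 called 13.5% of all genes higher and 13.1% lower. With the fold limit of 0.5, 0 of the 33 genes were higher and 0 lower, and 444 of all genes and 1 gene of the other lists (17 without the limit, 11 to 17 with each library left out) passed. The median of the sterol branch (-0.070) was -0.084 with upper quartile scaling, -0.051 with library totals only, -0.045 with length offsets, -0.035 with length and GC offsets, and -0.082 to -0.055 with each library left out. The median of the fatty acid branch (0.0041) was -0.0097, 0.023, -0.032 and -0.033 under the same 4 settings, -0.0065 with GC offsets, and -0.014 to 0.012 with each library left out. The median of the 7 regulators (-0.049) was -0.10 with GC offsets and, with each library left out, lay between -0.089 and 0.017, the latter without SMIP34 replicate 2. These movements of medians and counts have causes that were not tested.

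Reversals of sign were confined to 8 genes that did not pass, and 29 of 660 values were of this kind. SQLE was at 0.018 with library totals only, 0.0002 without a filter and with DESeq2 with or without its prior, 0.0045 with length offsets and 0.0001 with the replicate block. SCAP was at -0.011 with upper quartile scaling and -0.025 with length offsets, ACACA at 0.013 with library totals only, SCD at -0.0020 with length offsets and -0.010 with length and GC offsets, ELOVL6 at -0.011 and -0.012 with GC offsets and with both, and ACLY at -0.0086 with length offsets. With each library left out, GGPS1 ranged from -0.092 to 0.0038, SQLE from -0.045 to 0.024, SCAP from -0.0070 to 0.017, STARD4 from -0.089 to 0.019, ACACA from -0.018 to 0.012, ELOVL6 from -0.0042 to 0.037 and ACLY from -0.0091 to 0.045.

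Libraries with the same replicate number did not deviate together between the groups (correlations -0.028, 0.033 and -0.011), so pairing by number was not assumed. With the replicate number as a block, 4 of the 33 genes were higher and 9 lower, 17 genes of the other lists passed, and 4432 of all genes did. The 3 calls lost were those of DHCR7, FADS2 and FDFT1.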
